A study of Homo sapiens with 24 samples.

Results

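The clustered protocadherin genes are 3 neighbouring groups of cadherin-related genes on the long arm of chromosome 5. They were chosen by name, as the genes on chromosome 5 whose symbol is PCDHA, PCDHB, PCDHGA, PCDHGB or PCDHGC followed by an optional C and a number, so that the choice used no measured value. The rule took 55 of the 57820 genes in the tables, 16 in the alpha cluster, 18 in the beta cluster and 21 in the gamma cluster. On GRCh37, the build of the files, the alpha cluster spanned positions 140165876 to 140391936 of chromosome 5, the beta cluster 140430979 to 140627799 and the gamma cluster 140710252 to 140892546, and all 55 genes lie on the plus strand. PCDHA14, PCDHB17 and PCDHB18 are annotated as pseudogenes.

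The study asked how cells with and without ID3, an inhibitor of DNA binding that pairs with helix-loop-helix transcription factors, respond at the RNA level to mocetinostat, an inhibitor of class I histone deacetylases. Total RNA of 24 libraries was read, 3 in each of 8 groups, from U2OS osteosarcoma cells and from AID-DIvA cells, a U2OS derivative that carries an inducible AsiSI restriction enzyme. AID-DIvA cells, WT or ID3-KO, were untreated or had taken mocetinostat for 24 h followed by 24 h of recovery. U2OS cells, WT or ID3-KO, were untreated or were taken at the end of the 24 h with mocetinostat, before any recovery. The stage of sampling and the cell line as labelled coincide and cannot be told apart, and the descriptions of the U2OS libraries also name DIvA cells. For the 12 AID-DIvA libraries the titles and a treatment field of the labels differ, and the titles were followed. The labels of the U2OS libraries do not give the time of collection, which was read from the series' design text. Neither the mocetinostat dose of the RNA samples nor the number of ID3-KO clones was stated in the sources used here. The labels give the 3 libraries of a group as biological replicates and do not say what separated them.

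Each alpha and gamma protein is made from 1 large variable exon, which has its own promoter and encodes the whole extracellular part, spliced to constant exons that its cluster shares. Beta genes are single variable exons with no constant part. The last members of the alpha and gamma clusters, the C-type genes PCDHAC1, PCDHAC2, PCDHGC3, PCDHGC4 and PCDHGC5, are more alike to each other than to the alternate genes before them. In neurons each cell uses a small, partly random set of alternate promoters, and the proteins on its surface bind like with like, by which a neuron tells its own branches from those of others. Promoter choice is known to depend on CTCF and cohesin, on DNA methylation and, for alpha genes, on antisense RNA that is read through the variable exons.

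The tables held 37878751 to 76906266 counts per library, and the clustered protocadherin genes took 10523 to 29038 of them, or 0.0215% to 0.0412%. Levels are given as CPM, the counts of a gene per 1000000 counts of its library after TMM scaling of the library totals. ID3 was listed at 47.9, 51.4 and 51.9 CPM in untreated AID-DIvA WT against 33.3, 32.0 and 38.8 CPM in ID3-KO, and at 80.7, 54.2 and 52.1 CPM in untreated U2OS WT against 32.2, 30.2 and 29.3 CPM in ID3-KO. ID3 RNA was thus lower in ID3-KO but not absent, and these counts do not show whether protein was made. Among bone-lineage markers COL1A1 lay between 1073 and 2373 CPM over the group means and RUNX2 between 12.5 and 43.1 CPM, SP7 stayed at or below 0.0513 CPM, and the T cell gene CD3E stayed at or below 0.0198 CPM. U2OS WT untreated replicate 1 stood apart from its group, with a summed gamma level of 36.6 CPM against 68.9 CPM in each of the other replicates. Tests that rest on it are given with and without it. Summed levels, medians and counts of members whose libraries did not overlap are given only with it. In bulk RNA a lower level in every cell and fewer cells that use a gene cannot be told apart.

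The promoters of most alternate genes are known to carry a short conserved element with a CGCT core that CTCF binds. The RefSeq promoter table (GRCh38.p14, 300 bases around each start) held 46 of the 55 members. The letters TGNCGCT, picked here from the members' own promoters, were found on either strand in 31 of these 46 promoters (67.4%), against 13.0% of the 27305 genes with a promoter in the table. They occurred in 11 of 13 alpha, 13 of 14 beta and 7 of 19 gamma promoters. The spelling differed by cluster. TGTCGCT was present in 10 of 13 alpha promoters and in 2.15% of all genes, and TGGCGCT in 13 of 14 beta promoters and in 4.92% of all genes. On the strand of the gene the letters lay 41 to 84 bases before the RefSeq start in 10 alpha genes, 14 to 74 bases in 12 beta genes and 41 to 73 bases in 6 gamma genes. The windows below are those of members on which the results turn. They are 40 bases long, read 5′ to 3′ on the plus strand, placed on GRCh37 by exact match and credited to RefSeq, and capitals mark the letters TGNCGCT.
PCDHA6, chr5:140207469-140207508: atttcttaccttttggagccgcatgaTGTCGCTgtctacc
PCDHA7, chr5:140213744-140213783: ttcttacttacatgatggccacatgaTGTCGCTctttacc
PCDHA8, chr5:140220702-140220741: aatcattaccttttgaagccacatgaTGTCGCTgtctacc
PCDHB5, chr5:140514748-140514787: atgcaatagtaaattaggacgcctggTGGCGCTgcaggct
PCDHB13, chr5:140593424-140593463: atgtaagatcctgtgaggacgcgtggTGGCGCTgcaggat
PCDHB14, chr5:140602822-140602861: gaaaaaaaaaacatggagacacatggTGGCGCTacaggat
PCDHGA3, chr5:140723321-140723360: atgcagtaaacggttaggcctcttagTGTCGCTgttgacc
PCDHGB4, chr5:140767198-140767237: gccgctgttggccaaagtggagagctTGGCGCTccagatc
PCDHGC3, chr5:140855434-140855473: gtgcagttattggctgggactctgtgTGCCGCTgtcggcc
Members that changed were found with and without the letters. PCDHA8, which rose in ID3-KO before recovery, carried them, and PCDHGA6, PCDHGA9 and PCDHGA10, which fell there, did not. The 40 bases before the starts of PCDHGA6 and PCDHGA10 still held the letters CGCT. Lack of the exact letters TGNCGCT thus does not show that the element is absent. Whether the letters go with the response was not tested. The C-type gene PCDHAC1, which rose before recovery, had none of these letters in its promoter either, and the 40 bases before its RefSeq start are shown beside the others.
PCDHAC1, chr5:140305844-140305883: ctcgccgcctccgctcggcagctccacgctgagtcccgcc

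In untreated cells all 3 clusters were read, with the beta cluster highest. Its genes summed to 232.1 ± 3.0 CPM (SD, n = 3) in AID-DIvA WT, against 50.9 CPM for the alpha and 53.1 CPM for the gamma cluster. Between 34 and 42 of the 55 members reached a mean of 1 CPM, depending on the group. The beta cluster had 17 of its 18 members at that level in each of the 4 untreated groups, and the gamma cluster 10 to 12 of 21. The 5 highest members held 41.0% to 48.4% of the summed CPM in the 8 groups.

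PCDHB5, a single-exon beta gene at positions 140514800 to 140517703, was the highest member in all 8 groups, with 14.1% to 22.3% of the summed CPM. It lay at 65.8, 67.4 and 67.7 CPM in the 3 untreated AID-DIvA WT libraries and at 78.5, 84.9 and 87.2 CPM in those of U2OS WT. To set genes side by side, CPM was divided by the length in kilobases of the exons that a gene does not share, since the constant exons (2869 bases in alpha, 2177 in gamma) belong to every gene of their cluster. On this scale PCDHB5 stood at 23.1 CPM per kb in untreated AID-DIvA WT, followed by the C-type gene PCDHGC3 at 10.1, PCDHB8 at 8.91 and PCDHB2 at 4.48. In untreated AID-DIvA ID3-KO the order was PCDHB5 at 25.1, PCDHB2 at 11.8, PCDHGC3 at 11.1, PCDHB8 at 10.6 and PCDHA6 at 8.60 CPM per kb. PCDHB5 was thus first in both genotypes, and PCDHB2 and PCDHA6 held a higher place in ID3-KO. PCDHGC3 made up 48.1% of the gamma sum in untreated AID-DIvA WT. PCDHA14 had a count of 0 in all 24 libraries, and PCDHB1 was the next lowest member on this scale in each of the 4 untreated groups, at or below 0.0277 CPM per kb.

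**Figure D1:**
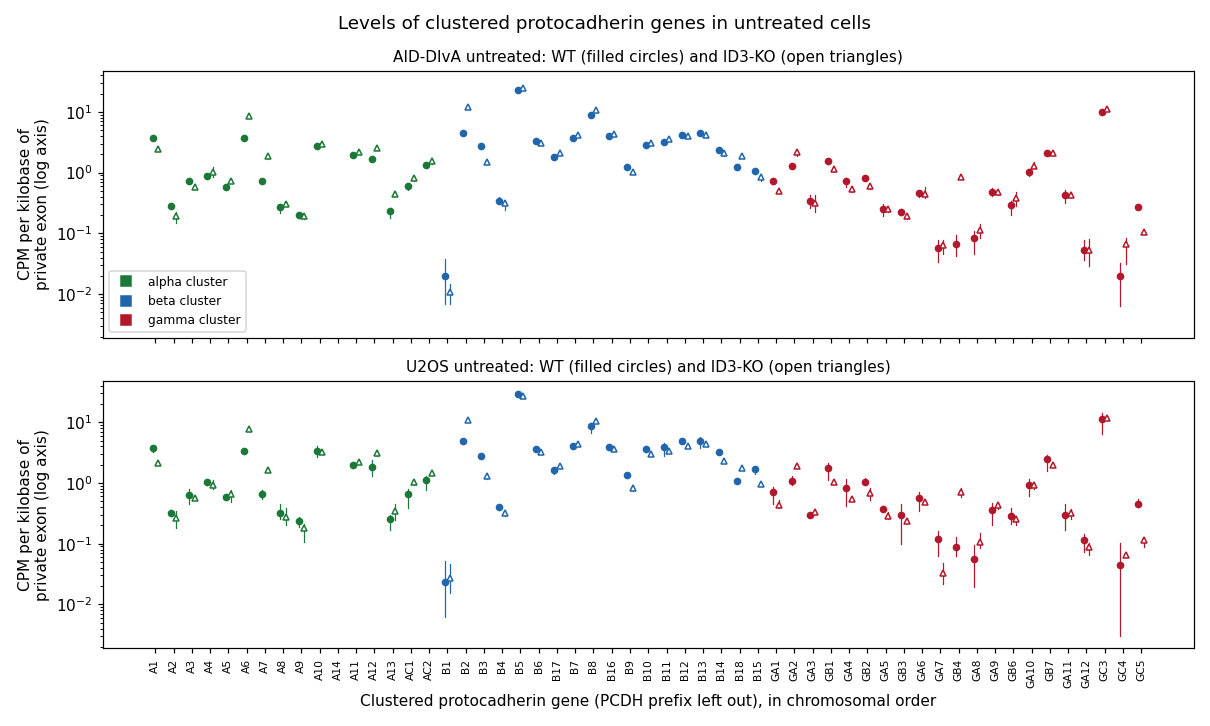
Level of each clustered protocadherin gene in untreated cells, as CPM per kilobase of unshared exon on a log axis, ordered along chromosome 5 and coloured by cluster (points for means of 3 libraries, bars from the lowest to the highest library, AID-DIvA above and U2OS below). PCDHB5 is the highest member throughout, and PCDHGC3 is the highest gamma member.

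At the end of the mocetinostat exposure, before recovery, the beta cluster fell in U2OS cells of both genotypes, most gamma members were lower, and the alpha cluster did not fall as a whole. The summed beta level was 264.2 ± 23.8 CPM in untreated and 134.6 ± 6.18 CPM in treated U2OS WT, and 259.0 ± 6.96 against 129.9 ± 5.50 CPM in ID3-KO (SD, n = 3 each). The median log2 fold change of the 17 beta genes tested was −1.02 in WT and −1.0 in ID3-KO, beside 0.01 and 0.00 over all genes tested. The same median was −0.32 and −0.72 for gamma genes and 0.13 and 0.02 for alpha genes. The WT medians include U2OS WT untreated replicate 1, which was low in the gamma cluster, and were not computed without it. No test was made of the sums or medians.

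By gene, with edgeR's quasi-likelihood test, a Benjamini-Hochberg adjusted p below 0.05 over all genes and a log2 fold change beyond 1, 16 of 50 members tested fell in ID3-KO, where 5.77% of all genes fell, and 11 of 51 fell in WT, where 5.06% of all genes fell. In the other direction 2 members rose in ID3-KO, where 14.6% of all genes rose, and 1 rose in WT, where 13.6% rose. At the adjusted p alone 30 fell and 6 rose in ID3-KO (34% and 35.8% of all genes), and 19 fell and 4 rose in WT (22.9% and 26%). Without U2OS WT untreated replicate 1, 14 members fell in WT with the fold threshold (5.56% of all genes) and 29 at the adjusted p alone (32.5%). Of the 55 members, 34 had all treated libraries below all untreated ones in ID3-KO and 24 in WT, and 5 and 6 had them all above. The share of all genes that separate in this way is not given here, so these counts describe the members only.

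PCDHB5 was at 78.5, 84.9 and 87.2 CPM in untreated and 37.9, 35.0 and 34.8 CPM in treated U2OS WT. In ID3-KO it was at 78.2, 76.4 and 78.7 CPM against 31.9, 34.8 and 33.6 CPM. In neither genotype did the groups overlap, and the log2 fold change was −1.21 ± 0.08 (SE, edgeR adjusted p = 1.35e-05) in WT and −1.21 ± 0.05 (edgeR adjusted p = 4.36e-16) in ID3-KO. PCDHB8 fell by 1.15 ± 0.15 on the log2 scale in WT (edgeR adjusted p = 0.000532), from 18.0, 25.2 and 26.8 to 9.56, 11.1 and 10.6 CPM. In ID3-KO it fell by 1.5 ± 0.07 (edgeR adjusted p = 3.04e-15), from 28.4, 27.8 and 29.3 to 9.63, 9.28 and 11.1 CPM. The lowest untreated WT value of PCDHB8 was that of replicate 1, without which its fall in WT was 1.32 ± 0.06.

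Further along the beta cluster, PCDHB14 was at 10.3, 9.10 and 9.42 CPM in untreated and 4.17, 3.0 and 2.88 CPM in treated U2OS WT, and at 7.29, 6.73 and 6.31 against 2.44, 2.05 and 2.74 CPM in ID3-KO. Its log2 fold changes were −1.51 ± 0.16 and −1.48 ± 0.11 (edgeR adjusted p = 0.000163 and 4.88e-11). PCDHB13 was at 13.3, 18.3 and 20.1 CPM in untreated and 6.31, 6.67 and 6.94 CPM in treated U2OS WT. PCDHB13 also had every treated library below every untreated one in ID3-KO, and fell by 1.37 ± 0.15 in WT and by 1.49 ± 0.08 in ID3-KO. PCDHB7, PCDHB9, PCDHB11 and PCDHB16 fell in both genotypes as well, with log2 fold changes between −1.02 (PCDHB7) and −1.44 (PCDHB9) in WT. PCDHB12 passed the fold threshold in WT (−1.10 ± 0.10) and lay just short of it in ID3-KO (−0.89 ± 0.07), and PCDHB15 the reverse (−0.95 ± 0.15 and −1.0 ± 0.16). Without U2OS WT untreated replicate 1 PCDHB15 passed in WT too (−1.05, edgeR adjusted p = 4.47e-10). Beta genes are near copies of each other, so reads that fit several of them may have been dropped or assigned to the wrong copy, and the split of counts among such paralogs is uncertain.

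Not every beta gene was lower. PCDHB6 lay at 11.1, 12.3 and 11.7 CPM in untreated and 13.8, 12.7 and 12.6 CPM in treated U2OS WT, a log2 difference of 0.17 ± 0.08 (edgeR adjusted p = 0.139). In ID3-KO the difference was 0.33 ± 0.07 (edgeR adjusted p = 0.000288), below the fold threshold. PCDHB4 was at 1.39, 1.54 and 1.5 CPM in untreated and 2.28, 1.85 and 2.11 CPM in treated U2OS WT, and at 1.05, 1.30 and 1.11 against 2.34, 2.18 and 2.13 CPM in ID3-KO. Its treated libraries were above its untreated ones in both genotypes, with log2 fold changes of 0.50 ± 0.15 and 0.95 ± 0.15, short of the threshold of 1.

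**Figure D2:**
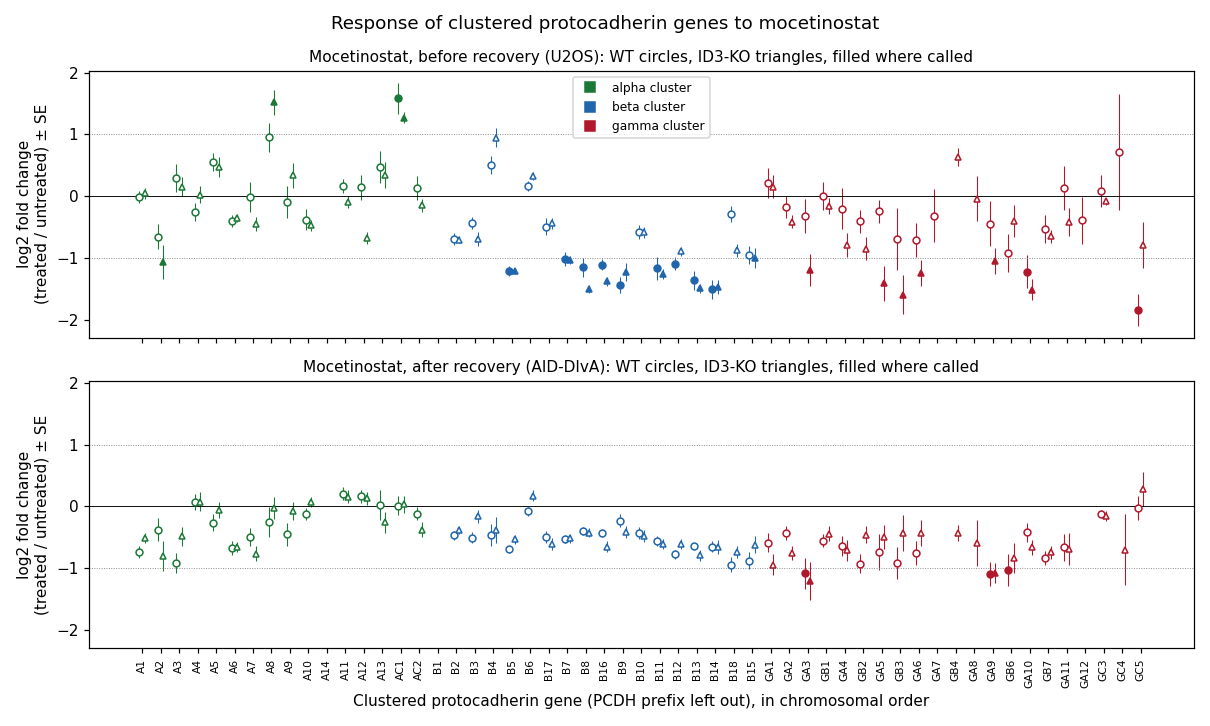
Log2 fold change of treated against untreated cells for each clustered protocadherin gene tested, in chromosome order, with bars of ± 1 SE. The upper panel is before recovery (U2OS) and the lower panel after recovery (AID-DIvA), WT as circles and ID3-KO as triangles, filled where both thresholds were passed. Before recovery the beta genes tested have a median near −1, while PCDHA8 and PCDHAC1 lie above 0.

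Among gamma genes, whose alternate members are the A and B subfamilies, PCDHGA10 was at 1.47, 2.84 and 2.46 CPM in untreated and 1.13, 0.853 and 0.882 CPM in treated U2OS WT. In ID3-KO it was at 2.37, 1.91 and 2.53 against 0.639, 0.843 and 0.877 CPM. It fell in both genotypes, by 1.23 ± 0.27 and 1.51 ± 0.17 on the log2 scale (edgeR adjusted p = 0.00629 and 6.19e-08). PCDHGA3, PCDHGA5, PCDHGA6, PCDHGA9 and PCDHGB3 passed both thresholds in ID3-KO, with log2 fold changes from −1.05 (PCDHGA9) to −1.60 (PCDHGB3), and not in WT, where they ranged from −0.25 (PCDHGA5) to −0.72 (PCDHGA6). Without U2OS WT untreated replicate 1 PCDHGB3 passed both thresholds in WT as well (−1.13, edgeR adjusted p = 0.000272), and PCDHGA6 (−0.97, 3.53e-05) and PCDHGA9 (−0.75, 0.00954) passed the adjusted p alone. In the test of the difference between genotypes none of these passed, the lowest adjusted p being 0.0585 for PCDHGA5, at −1.16 ± 0.29. These are low genes, below 2 CPM in every library.

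The C-type genes did not move as a group. PCDHAC1 was at 1.18, 2.44 and 2.44 CPM in untreated and 5.71, 5.93 and 6.36 CPM in treated U2OS WT, and at 2.87, 3.22 and 3.35 against 7.43, 7.66 and 7.64 CPM in ID3-KO. All treated libraries lay above all untreated ones, and the gene rose by 1.58 ± 0.25 in WT (edgeR adjusted p = 0.00137) and 1.27 ± 0.09 in ID3-KO (edgeR adjusted p = 2.95e-11). Without the WT replicate that stood apart the rise in WT was 1.31. PCDHGC5 was at 1.04, 0.978 and 1.35 CPM in untreated and 0.229, 0.337 and 0.355 CPM in treated WT, a log2 fold change of −1.84 ± 0.26 (edgeR adjusted p = 0.000727). In ID3-KO, where untreated PCDHGC5 was already at 0.310, 0.219 and 0.321 CPM, it was at 0.168, 0.147 and 0.166 CPM after treatment (−0.80 ± 0.37, edgeR adjusted p = 0.061). PCDHGC3, the highest gamma gene, was at 30.2, 29.5 and 28.6 CPM in untreated and 27.7, 27.6 and 27.5 CPM in treated ID3-KO (−0.09 ± 0.05, edgeR adjusted p = 0.139). In WT it was at 16.2, 35.6 and 34.1 against 31.4, 29.5 and 29.6 CPM, where replicate 1 decides the sign, the log2 difference being 0.09 ± 0.26 with it and −0.20 ± 0.05 (edgeR adjusted p = 0.000427) without it. PCDHAC2 (0.13 in WT and −0.15 in ID3-KO) and PCDHGC4 (at most 0.278 CPM in any library) did not pass the test before recovery.

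**Figure D3:**
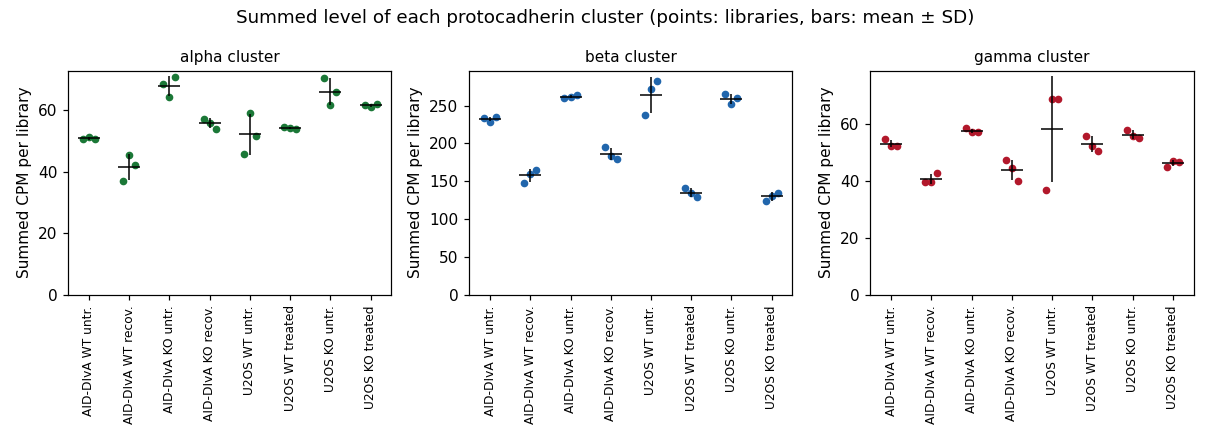
Summed CPM of the alpha, beta and gamma cluster in each of the 24 libraries (points), with the mean ± SD of each group of 3. The beta sum is lower in every treated library than in the untreated libraries of its line and genotype, and U2OS WT untreated replicate 1 is the low point of the gamma panel.

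Among alternate alpha genes PCDHA8 rose in ID3-KO and PCDHA2 fell. PCDHA8 was at 0.950, 0.489 and 0.606 CPM in untreated and 2.03, 1.78 and 1.95 CPM in treated ID3-KO (1.52 ± 0.20, edgeR adjusted p = 4.44e-07). In WT it was at 0.635, 1.09 and 0.644 against 1.67, 1.43 and 1.5 CPM, a log2 fold change of 0.95 ± 0.24 (edgeR adjusted p = 0.0125) that stayed under the fold threshold and reached 1.26 without untreated replicate 2. PCDHA2 was at 0.873, 1.10 and 0.570 CPM in untreated and 0.303, 0.513 and 0.393 CPM in treated ID3-KO (−1.07 ± 0.28, edgeR adjusted p = 0.00149). The treated and untreated libraries of these genes did not overlap. The 20 members that met the naming rule but came after its limit of 30, PCDHB4 among them, lay at group means between 0.564 and 11.97 CPM. Their log2 fold changes before recovery ran from −0.88 to 0.95 in ID3-KO and from −0.58 to 0.56 in WT.

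The counts above took reads of either strand, and for alpha genes the strand mattered. The tables also give counts of the strand of the gene (sense) and of the opposite strand (antisense). Antisense counts were about 0.1% of beta and gamma counts, but over all libraries they were 84.5% of the counts of PCDHA2, 67.4% of PCDHA3, 45.2% of PCDHA8, 44.8% of PCDHA9 and 36.9% of PCDHA11, against 1.70% of PCDHA6. PCDHA14 had 4116 sense and 1212 antisense counts in all although its either-strand count was 0. It lies in the span of an annotated antisense gene. The counts of these genes are thus sums of 2 strands that cannot be read as the level of the protocadherin RNA alone.

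Before recovery the summed antisense level of the alpha cluster was 9.05 ± 0.43 CPM in untreated and 5.40 ± 0.66 CPM in treated U2OS WT, and 8.71 ± 0.46 against 4.53 ± 0.22 CPM in ID3-KO (SD, n = 3 each). The summed sense level was 48.4 ± 7.42 against 52.7 ± 0.41 CPM in WT and 61.5 ± 4.15 against 60.0 ± 0.59 CPM in ID3-KO, differences smaller than the SD of the untreated libraries. The antisense sums did not overlap between treated and untreated libraries in either genotype. Of 11 alpha genes whose antisense counts could be tested, 5 fell in ID3-KO, where 9.88% of all genes with antisense counts fell, and 3 fell in WT, where 7.86% fell. PCDHA2, PCDHA9 and PCDHA10 fell in both genotypes (−1.54, −1.28 and −2.10 in ID3-KO, −1.09, −1.44 and −1.74 in WT), and PCDHA3 (−1.05) and PCDHA11 (−1.06) in ID3-KO.

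On the sense strand 4 members rose in ID3-KO, where 15.2% of all genes rose, and 3 rose in WT, where 14.2% did. In the other direction 15 and 11 members fell, where 5.96% and 5.39% of all genes fell. PCDHA8 went from 0.233 to 1.52 CPM of sense counts in ID3-KO (2.72 on the log2 scale, edgeR adjusted p = 2.75e-09) and from 0.234 to 1.17 CPM in WT (2.29, edgeR adjusted p = 0.000242). PCDHA3, whose either-strand counts gave 0.15 ± 0.15 in ID3-KO and 0.30 ± 0.23 in WT, went from 0.246 to 0.998 CPM of sense counts in ID3-KO (2.01, edgeR adjusted p = 6.58e-07) and from 0.199 to 1.21 CPM in WT (2.59, edgeR adjusted p = 0.00635). PCDHA9 rose on the sense strand in ID3-KO (1.24, edgeR adjusted p = 6.71e-05) and stayed under the fold threshold in WT (0.70, edgeR adjusted p = 0.0381). For these 3 genes the mean antisense level was lower in treated cells, with the antisense log2 difference of PCDHA8 at −0.13 in ID3-KO and −0.58 in WT, neither past the test. The either-strand counts of PCDHA3 and PCDHA9 passed no test before recovery. PCDHAC1 had sense log2 fold changes of 1.26 and 1.59, close to its either-strand values. The fall of PCDHA2 named above was a fall of antisense counts, which went from a mean of 0.782 to 0.269 CPM in ID3-KO, beside 0.0648 and 0.134 CPM on the sense strand.

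**Figure D4:**
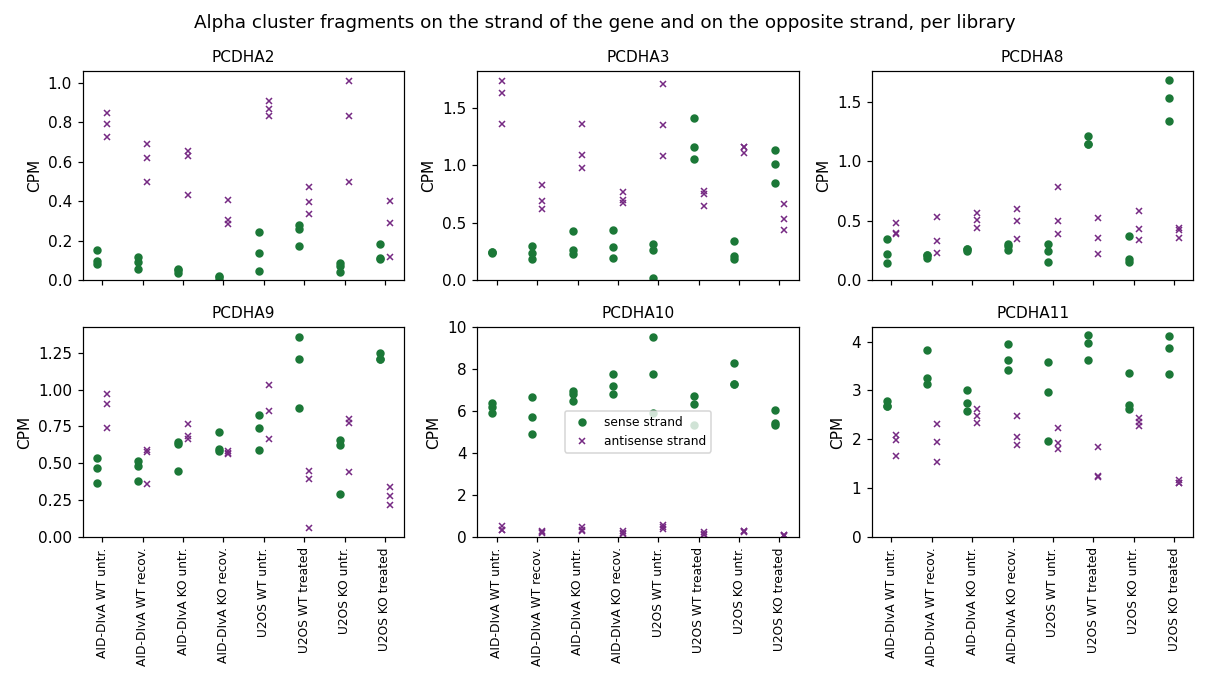
Sense (circles) and antisense (crosses) level, in CPM, of 6 alpha genes in each of the 24 libraries by group. In treated U2OS cells PCDHA3, PCDHA8 and PCDHA9 have a higher mean sense level and a lower mean antisense level than in untreated ones, in both genotypes.

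After 24 h of recovery the clusters were lower than in untreated AID-DIvA cells, and more evenly so over the beta and gamma clusters. By median, beta genes fell by smaller steps than before recovery (−1.02 in WT and −1.0 in ID3-KO). Gamma genes fell by a larger step in WT (−0.32 before recovery) and by a similar one in ID3-KO (−0.72). The WT value before recovery includes U2OS WT untreated replicate 1, low in the gamma cluster, so how much larger that step was is uncertain. The alpha medians before recovery were 0.13 and 0.02. The sum over all 55 genes was 336.1 ± 3.24 CPM in untreated and 240.2 ± 13.7 CPM in recovered WT, and 387.4 ± 4.21 against 285.7 ± 13.2 CPM in ID3-KO (SD, n = 3 each). The beta sum was 232.1 ± 3.0 against 157.9 ± 8.87 CPM in WT and 262.0 ± 1.61 against 186.0 ± 8.24 CPM in ID3-KO. The median log2 fold change was −0.51 and −0.53 for beta, −0.70 and −0.66 for gamma and −0.26 and −0.08 for alpha genes in WT and ID3-KO, beside −0.00 and −0.02 over all genes. Below 0 were 43 of 48 members tested in WT and 44 of 51 in ID3-KO.

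Few of these changes reached the fold threshold. With it 3 members fell in WT, where 2.52% of all genes fell, and 2 in ID3-KO, where 2.56% fell. None rose, where 4.86% and 4.9% of all genes rose. At the adjusted p alone 33 of 48 members fell in WT and 31 of 51 in ID3-KO, where 23% and 19.9% of all genes fell, and again none rose. All recovered libraries were below all untreated ones for 38 of the 55 members in WT and 34 in ID3-KO, and above them for none. For these counts, too, the share of all genes is not given. At an unadjusted p below 0.05 edgeR had 0 members up in either genotype, and DESeq2 called no member up with both thresholds. The counts with the fold threshold depend on single libraries, running from 1 to 7 in WT (7 without recovered replicate 3, 1 without recovered replicate 1 or untreated replicate 1) and from 1 to 4 in ID3-KO (4 without recovered replicate 2, 1 without untreated replicate 3).

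PCDHGA9 was at 1.37, 1.12 and 0.996 CPM in untreated and 0.489, 0.483 and 0.625 CPM in recovered WT, and at 1.24, 1.05 and 1.25 against 0.598, 0.513 and 0.564 CPM in ID3-KO. It fell by 1.09 ± 0.20 in WT and 1.08 ± 0.17 in ID3-KO (edgeR adjusted p = 0.000564 and 0.000791). PCDHGA3 was at 0.626, 1.03 and 0.870 against 0.338, 0.345 and 0.496 CPM in WT (−1.09 ± 0.25, edgeR adjusted p = 0.00277) and fell by 1.21 ± 0.31 in ID3-KO (edgeR adjusted p = 0.0116). For both genes, recovered and untreated libraries did not overlap. PCDHGB6 fell in WT (−1.03 ± 0.27, edgeR adjusted p = 0.00593) and was at −0.84 ± 0.24 in ID3-KO. PCDHB5 was at 65.8, 67.4 and 67.7 CPM in untreated and 37.8, 41.4 and 44.1 CPM in recovered WT, a log2 fold change of −0.70 ± 0.06 (edgeR adjusted p = 4.47e-07), and of −0.53 ± 0.07 (edgeR adjusted p = 0.000301) in ID3-KO. PCDHAC1, which rose before recovery, was at 1.98, 1.94 and 1.60 against 2.20, 1.68 and 1.62 CPM in WT, and its fold change of 0.01 ± 0.15 did not pass the test (edgeR adjusted p = 0.951). PCDHGC3 (−0.12 ± 0.06 in WT) and PCDHB6 (−0.08 ± 0.07 in WT) did not pass it either. The antisense sum of the alpha cluster was 8.68 ± 0.12 against 6.72 ± 0.72 CPM in WT and 8.63 ± 0.34 against 7.05 ± 0.41 CPM in ID3-KO, where of 11 genes only PCDHA3 in WT fell (−1.12, where 2.67% of genes with antisense counts fell) and none fell in ID3-KO (2.7%).

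The change before recovery was set against the change after recovery in 1 fit per genotype over the 4 groups. A negative value means that treated cells were lower, relative to their own untreated cells, before recovery than after it. By adjusted p, 18 of 52 members had a more negative and 8 a more positive change before recovery in ID3-KO, where 24.8% and 27.7% of all genes did, and 9 and 8 of 53 in WT, where 20.5% and 21.7% did. Without U2OS WT untreated replicate 1 the 9 became 13 (26% of all genes). PCDHB8 differed by −1.07 ± 0.10 in ID3-KO and −0.75 ± 0.17 in WT, PCDHB9 by −0.81 ± 0.17 and −1.21 ± 0.17, and PCDHB14 by −0.81 ± 0.17 and −0.85 ± 0.18. In the other direction PCDHAC1 differed by 1.24 ± 0.16 and 1.58 ± 0.31, and PCDHA8 by 1.55 ± 0.29 and 1.21 ± 0.35. PCDHA1 (0.57 and 0.73), PCDHA3 (0.65 and 1.22), PCDHB4 (1.34 and 0.97) and PCDHGA1 (1.11 and 0.80) lay on the positive side in both genotypes as well, and PCDHB18 (0.66) in WT. Of the beta genes that passed, PCDHB4 and, in WT, PCDHB18 were positive and the others negative. PCDHGA3 and PCDHGA9, which fell in ID3-KO at both stages, differed by 0.03 ± 0.40 and 0.04 ± 0.27. Since the stages were sampled in lines labelled differently, stage and line cannot be told apart in these values.

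Without treatment, single members differed between ID3-KO and WT, and the same 4 genes passed both thresholds upward in both lines. PCDHGB4, PCDHA6, PCDHA7 and PCDHB2 were higher in ID3-KO, 4 of 50 members tested in AID-DIvA, where 2.27% of all genes were higher, and 4 of 51 in U2OS, where 1.42% were. PCDHGC5 was lower in both lines and PCDHB3 in U2OS, 1 and 2 members, where 2.3% and 2.84% of all genes were lower. The median over the members was 0.09 in AID-DIvA and −0.18 in U2OS, with 23 of 50 members below 0 in AID-DIvA and 30 of 51 in U2OS.

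PCDHGB4, an alternate gamma gene of the B subfamily, was at 0.101, 0.223 and 0.158 CPM in AID-DIvA WT and 2.13, 2.06 and 2.0 CPM in ID3-KO. In U2OS it was at 0.310, 0.152 and 0.171 against 2.0, 1.72 and 1.43 CPM. The genotypes were far apart in both lines, with log2 differences of 3.62 ± 0.21 (edgeR adjusted p = 1.95e-09) and 3.01 ± 0.30 (edgeR adjusted p = 0.000744). PCDHB2 was at 12.8, 12 and 11.9 CPM in AID-DIvA WT and 31.3, 32.2 and 33.7 CPM in ID3-KO, and at 12.1, 14 and 14 against 30.6, 27.7 and 29.6 CPM in U2OS. It was higher by 1.38 ± 0.06 and 1.13 ± 0.09 (edgeR adjusted p = 7.13e-11 and 0.000265). PCDHA6 was at 8.55, 10.3 and 9.33 CPM against 22.0, 20.2 and 22.6 CPM in AID-DIvA, and at 8.31, 9.17 and 8.17 against 20.4, 19.0 and 19.4 CPM in U2OS (1.17 ± 0.07 and 1.19 ± 0.08, edgeR adjusted p = 4.92e-09 and 0.000164). Its neighbour PCDHA7 was higher by 1.32 ± 0.11 and 1.32 ± 0.16, from 1.84, 1.75 and 1.61 to 4.62, 3.91 and 4.68 CPM in AID-DIvA. For these 4 genes no WT library reached the lowest ID3-KO library of its line, and the labels do not say whether the ID3-KO cells of the 2 lines were made separately.

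In the other direction PCDHGC5 was at 0.626, 0.670 and 0.712 CPM in AID-DIvA WT against 0.275, 0.260 and 0.245 CPM in ID3-KO (−1.38 ± 0.22, edgeR adjusted p = 0.00013), and lower by −1.98 ± 0.25 in U2OS (edgeR adjusted p = 0.00231). PCDHB3 was at 8.99, 7.92 and 8.79 against 4.52, 4.95 and 5.02 CPM in AID-DIvA (−0.85 ± 0.08, edgeR adjusted p = 6.12e-07), just under the fold threshold, and at 8.19, 8.79 and 9.67 against 4.23, 3.68 and 4.60 CPM in U2OS (−1.09 ± 0.12, edgeR adjusted p = 0.00116). At the adjusted p alone 20 members differed in AID-DIvA, 10 up and 10 down (18.6% and 18.1% of all genes), and 12 in U2OS, 6 up and 6 down (6.56% and 8.63%). Of the 50 members tested in both lines 11 passed in both, all 11 with the same sign, and 40 of 50 had the same sign in both. The shares of all genes that passed in both lines or kept their sign were not computed. These counts therefore describe the members only. The 2 comparisons share no libraries. Without U2OS WT untreated replicate 1, 9 members were higher and 23 lower in U2OS at the adjusted p alone, where 20.5% and 20.6% of all genes were.

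**Figure D5:**
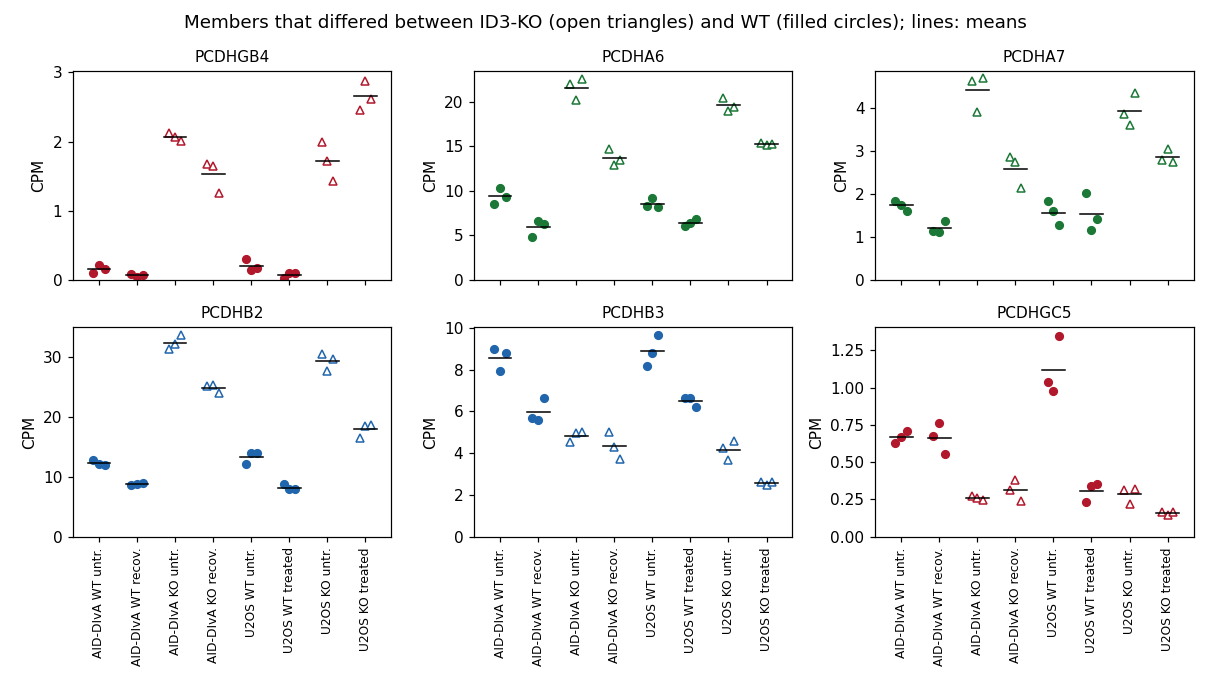
CPM of PCDHGB4, PCDHA6, PCDHA7, PCDHB2, PCDHB3 and PCDHGC5 in each library of the 8 groups (WT filled circles, ID3-KO open triangles, lines for group means). In untreated cells the genotypes do not overlap in either line for any of the 6 genes, and PCDHGB4 in ID3-KO is higher in treated than in untreated U2OS cells.

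The response to mocetinostat differed between genotypes by the interaction test for 1 member. Before recovery PCDHGB4 was at 2.45, 2.88 and 2.62 CPM in treated ID3-KO, against 2.0, 1.72 and 1.43 CPM in untreated ID3-KO, and at 0.0306, 0.0992 and 0.105 CPM in treated WT. These treated WT levels lie near the floor, and PCDHGB4 passed the filter on low counts through its ID3-KO libraries. The WT side of the comparison is therefore poorly measured. The difference of the changes was 2.04 ± 0.48 (edgeR adjusted p = 0.045), 1 of 53 members tested, where 1.1% of all genes passed upward, and no member passed downward, where 1.06% did. This call was lost when any 1 of 10 of the 12 libraries was left out and with the replicate block, and it stayed without WT untreated replicate 1 (1.64, edgeR adjusted p = 0.0447), where PCDHA12 (−0.63) and PCDHB18 (−0.52) passed downward and 4.46% and 4.56% of all genes passed upward and downward. With all libraries 8 members in either direction had an unadjusted p below 0.05 by edgeR, as did 13.2% of all genes, and DESeq2 called 3. After recovery no member passed by edgeR or DESeq2, the lowest edgeR adjusted p was 0.338, 4 of 52 members had an unadjusted p below 0.05, as did 11.8% of all genes, and 0.762% and 0.451% of all genes passed. A difference between genotypes was thus not detectable at this depth and number of libraries for nearly all members, which does not show that their responses were the same.

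Other genes of the family and of the pathway were read from lists. Non-clustered protocadherins, single genes outside the clusters that act in cell adhesion and development, were higher before recovery, with 6 of 10 tested rising in ID3-KO, 5 of 10 in WT and none falling beyond the fold threshold, where 14.6% and 13.6% of all genes rose. PCDH1 was at 1.49, 1.27 and 1.38 CPM in untreated and 46.5, 45.7 and 46.6 CPM in treated U2OS WT, and rose by 5.08 in WT and 5.29 in ID3-KO. PCDH15 (2.30 and 2.92), PCDH7 (2.60 and 1.87) and PCDH8 (2.06 and 2.20) rose in both genotypes. The median of the list was 1.19 in WT and 1.45 in ID3-KO, on the other side of 0 from the beta cluster. After recovery PCDH1 rose in ID3-KO (1.80), while PCDH11X and PCDH18 fell in both genotypes. None of 13 tested genes around and between the clusters, such as TAF7 between beta and gamma and HDAC3 beyond the gamma cluster, passed both thresholds in any of the 6 comparisons of 2 groups. At the edgeR adjusted p alone 7 of them were higher and 3 lower in ID3-KO before recovery (35.8% and 34% of all genes), and 5 and 2 in WT (26% and 22.9%).

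Of 17 regulators of cluster chromatin and promoter choice, DNMT3B, a DNA methyltransferase, rose in WT before recovery (1.10), where 13.6% of all genes rose. No other passed both thresholds in a treatment comparison. At the adjusted p alone 13 of 17 were lower and 3 higher in ID3-KO and 8 lower and 1 higher in WT before recovery, where 34% and 22.9% of all genes were lower. After recovery 10 were lower and 1 higher in ID3-KO and 11 lower and 1 higher in WT, where 19.9% and 23% of all genes were lower. Of 14 partners of the proteins and enzymes that process them, the kinases FYN (1.09 in WT and 1.53 in ID3-KO) and RET (3.47 and 3.0) rose before recovery. These 2 of 14 are near the share of all genes that rose, 13.6% in WT and 14.6% in ID3-KO. None of the 14 passed both thresholds after recovery. At the adjusted p alone 3 were then higher and 1 lower in ID3-KO (20.2% and 19.9% of all genes) and 3 and 5 in WT (23.9% and 23%). Of 6 neuron markers 4 rose in WT and 5 in ID3-KO before recovery, RBFOX3 and STMN2 among them, where 13.6% and 14.6% of all genes rose, and 2 and 3 after recovery, where 4.86% and 4.9% rose. Their part in the changes of the clustered genes was not tested.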

How the data were processed

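Stranded total RNA libraries (TruSeq, paired 100-base reads, NovaSeq) of 24 samples were aligned by the authors with STAR to hg19 (GRCh37) and counted per gene with featureCounts. The deposited counts are whole numbers, for either strand, the sense and the antisense strand, and the authors also deposited TPM and FPKM values, which were not used here. Groups came from titles. Either-strand counts were fitted with edgeR 4.0.16 in R 4.3.3 (TMM, filterByExpr, robust quasi-likelihood test) per comparison, with p adjusted over all genes tested. Calls needed a log2 fold change beyond 1 besides an adjusted p below 0.05, except in interactions and stage differences, where the adjusted p alone decided. SE is the log2 fold change over the square root of F. The script was tested on simulated data. Members with a mean of at least 1 CPM, C-type members and called members were named, up to 30, and up to 4 genes of each other list. Members and lists were chosen with earlier results of these data known. PCDHA1, PCDHA3, PCDHA5, PCDHA9 to PCDHA12, PCDHA14, PCDHB4, PCDHB18, PCDHGA1 and the 11X and 18 protocadherins were named after their values were seen. Alternatives were DESeq2 1.42.0, its size factors, other filters, sense counts, a replicate block, 1 fit over 4 groups, adjusted p alone and leaving out each library. Antisense counts and the last choice without U2OS WT untreated replicate 1 were added after seeing the data. WAPL was found under its older symbol WAPAL. Counts of replicates differed beyond sampling noise. Same-numbered replicates of compared groups deviated with correlations from −0.46 to 0.345. With 3 replicates per group this cannot decide whether the numbers pair the samples. Outside the replicate block the samples were treated as unpaired.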

Additional observations from a re-analysis of the deposited data

Results flagged for a closer look

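The members below are those whose change with mocetinostat differed between genotypes or stages by the test of the difference itself. Between genotypes PCDHGB4 differed before recovery, with a log2 difference of 2.04. Its treated WT levels lay near the floor, and leaving out any 1 of 10 of the 12 libraries removed the call.

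Between stages (before minus after recovery) in ID3-KO, the more negative changes before recovery were those of the beta genes PCDHB2 at −0.31, PCDHB3 at −0.53, PCDHB5 at −0.67, PCDHB7 at −0.51, PCDHB8 at −1.07, PCDHB16 at −0.72, PCDHB9 at −0.81, PCDHB11 at −0.65, PCDHB12 at −0.27, PCDHB13 at −0.70 and PCDHB14 at −0.81. Gamma genes on this side were PCDHGA5 at −0.91, PCDHGB3 at −1.16, PCDHGA6 at −0.81, PCDHGA10 at −0.84 and PCDHGC5 at −1.07, and alpha genes PCDHA10 at −0.54 and PCDHA12 at −0.80. The change before recovery was the more positive for PCDHA1 (0.57), PCDHA3 (0.65), PCDHA6 (0.31), PCDHA8 (1.55), PCDHAC1 (1.24), PCDHB4 (1.34), PCDHGA1 (1.11) and PCDHGB4 (1.08).

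In WT the negative differences were PCDHB5 at −0.51, PCDHB7 at −0.48, PCDHB8 at −0.75, PCDHB16 at −0.68, PCDHB9 at −1.21, PCDHB11 at −0.60, PCDHB13 at −0.71, PCDHB14 at −0.85 and PCDHGC5 at −1.82, and the positive ones PCDHA1 at 0.73, PCDHA3 at 1.22, PCDHA5 at 0.83, PCDHA8 at 1.21, PCDHAC1 at 1.58, PCDHB4 at 0.97, PCDHB18 at 0.66 and PCDHGA1 at 0.80. Stage and cell line label cannot be told apart in these values.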

How the results depend on the processing

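Of 593 values of named members called in a comparison of 2 groups and computed under the alternatives, 574 kept direction and side of the threshold, 19 kept direction only and none reversed. Of the counts, those with the adjusted p alone moved most, to 31 (ID3-KO) and 33 (WT) members down after recovery, 6 up and 30 down in ID3-KO and 4 up and 19 down in WT before recovery, 10 up and 10 down between untreated genotypes in AID-DIvA and 6 down in U2OS. Without U2OS WT untreated replicate 1 as well, 4 were up and 29 down in WT before recovery, and 9 up and 23 down between untreated U2OS genotypes. With at least 10 counts in every library 1 member was down in ID3-KO after recovery. Sense-strand counts gave 4 up in ID3-KO and 3 up in WT before recovery, and antisense counts 0 (ID3-KO) and 1 (WT) down after recovery and 5 and 3 before it. The interaction before recovery had 0 members up with at least 10 counts or with the replicate block, and down it had 2 by DESeq2, 1 with no filter and 1 with at least 10 counts. The cause was not tested. The replicate block changed no other call count by over 1.5 times.

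Leaving out each library in turn gave 1 to 4 members down in ID3-KO and 1 to 7 in WT after recovery. Before recovery it gave 2 to 4 up and 14 to 16 down in ID3-KO (4 without untreated replicate 2), and 1 to 2 up and 10 to 14 down in WT (2 without untreated replicate 2). The interaction before recovery ran from 0 to 1 up and from 0 to 2 down, and stayed at 0 after recovery. The stage difference ran from 7 to 9 up and 14 to 17 down in ID3-KO, and from 7 to 10 up and 8 to 13 down in WT. Untreated genotypes gave 4 to 5 up and 1 down in AID-DIvA, and 4 to 5 up and 2 to 3 down in U2OS.

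Depth limits the low gamma members, several of which had few counts. PCDHGB4, PCDHGC4, PCDHGA7, PCDHGA8 and PCDHGA12 were not tested in every comparison, and PCDHGB4 was not tested in WT after recovery. PCDHA14 was not tested on either-strand counts, and PCDHB1 passed the filter on low counts in none of the comparisons with all libraries.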
